A study of Homo sapiens with 6 samples.

Results

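*MYC* encodes a transcription factor that drives growth and division, and its mRNA is short-lived and tightly controlled. Proteins of the IGF2BP family, which carry RNA recognition motif and KH domains, are known to bind *MYC* mRNA and to protect it from decay. The best-known site is the coding region determinant, an instability element at the 3′ end of the coding sequence, and further sites are known in the 3′UTR. IGF2BP3 is an oncofetal member of this family that is expressed in many tumours.

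All IGF2BP3 binding clusters on exons of *MYC* were collected from 6 infrared PAR-CLIP libraries of HCT116 cells, a human colorectal carcinoma line, here of the genotype Tet-OsTIR1-PURO. The members were the clusters of any library of the plus strand that shared 1 nt or more with an annotated *MYC* exon (ENSG00000136997, GENCODE release 44, GRCh38 chromosome 8). They numbered 47 of 244645 clusters. All cells were labelled with 100 µM of the photoreactive nucleoside 4-thiouridine for 15 h and crosslinked with light of 365 nm, and every group consisted of 1 library. In 5 libraries the endogenous IGF2BP3 was precipitated after digestion with RNase I or RNase T1. RNase I cuts after any base and RNase T1 cuts after guanosine. The libraries are named by the RNase and its concentrations in the lysate and on the beads, in U/µL: RNase I 0.05/0.05, RNase I 0.1/0.025, RNase I 0.05/0.025, RNase T1 1/1 and RNase T1 0.25/0.25. The sixth library was an IgG control digested with RNase I 0.1/0.025. The antibody also recognises the related protein IGF2BP2 to some extent, so reads of the 2 proteins cannot be told apart here. The gel pieces of RNase I 0.05/0.05 and RNase T1 1/1 were electroeluted and those of the other IGF2BP3 libraries were crushed, so the comparisons between RNase I 0.05/0.05 and the other RNase I libraries, and between the 2 RNase T1 libraries, changed dose and gel extraction at once, and the 2 cannot be told apart there. With 1 library per condition no test between conditions was possible, and all intervals below are exact 95% intervals that cover counting error only.

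The libraries differed in depth, from 182448 reads in clusters in RNase T1 0.25/0.25 to 2362467 in RNase I 0.05/0.05, and the IgG library held 324 reads in 25 clusters. Read counts are given as CPM, reads per 1000000 reads in clusters of the same library. Of 8 markers of colorectal epithelium, 6 had a cluster in at least 1 library, from *EPCAM* in all 5 IGF2BP3 libraries to *CDX2* in RNase T1 1/1 alone, while *VIL1* and *CDX1* had none. None of the 6 markers of other cell types (*PTPRC*, *CD68*, *COL1A1*, *PECAM1*, *ALB* and *HBB*) had a cluster.

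The *MYC* gene has 3 exons in its canonical transcript, and the coding sequence ends in exon 3. The stop codon begins at chromosome 8, position 127740956. Positions along the mRNA are counted from this base, negative before it and positive after it. The canonical transcript carries a 3′UTR of 1996 nt, counted with the stop codon, but it is the single transcript of 15 to end at position 127742951. In contrast, 8 of the 15 annotated transcripts end at position 127741434, which gives a 3′UTR of 479 nt. Exon 2 (positions 127738248 to 127739019, 772 nt) is entirely coding. The last 250 nt of the coding sequence (positions 127740706 to 127740955) served as the window for the coding region determinant.

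*MYC* carried clusters in each of the 5 IGF2BP3 libraries and none in the IgG library. RNase I 0.05/0.05 gave 13 clusters with 1784 reads, RNase I 0.1/0.025 gave 10 clusters with 268 reads and RNase I 0.05/0.025 gave 7 clusters with 372 reads. RNase T1 1/1 gave 10 clusters with 359 reads, and RNase T1 0.25/0.25 gave 7 clusters with 100 reads. All 47 clusters lay on the plus strand. No cluster of either strand was found in the introns or within 5000 nt of the gene, apart from 4 nt of intron at the 5′ edge of 1 cluster that began just before exon 2. The absence from the IgG library carries little weight at a depth of 324 reads, and the files list only regions that were called as clusters, so no limit could be set for it.

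**Figure D1:**
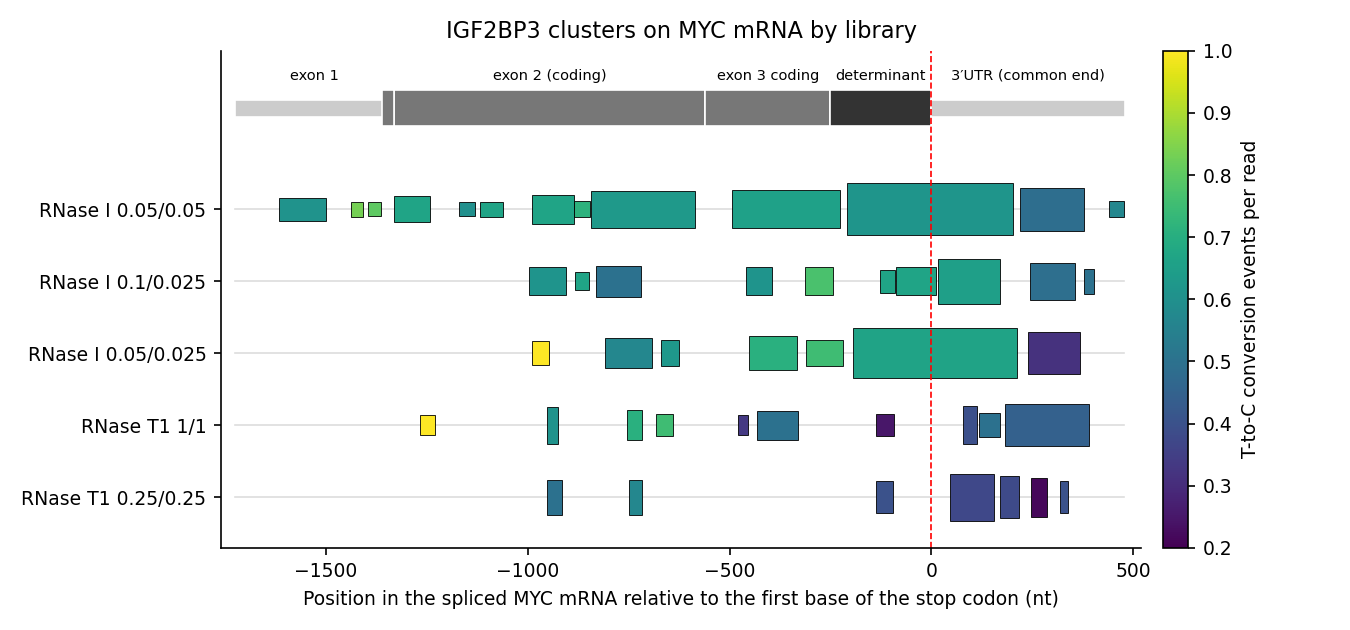
Map of the 47 IGF2BP3 clusters on the spliced *MYC* mRNA, 1 row per library. The horizontal axis gives the position in nt from the first base of the stop codon (dashed line), box height rises with the logarithm of the cluster's CPM, and colour gives T-to-C conversions per read. A bar at the top shows untranslated sequence (thin, light grey), coding sequence (thick, grey), the 250-nt determinant window (black) and the 3′UTR to the commonly annotated end. The 3 RNase I libraries run across the stop codon and the 2 RNase T1 libraries do not.

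The summed level of *MYC* was 755 CPM (interval 721 to 791) in RNase I 0.05/0.05 and 555 CPM (500 to 614) in RNase I 0.05/0.025. It was 334 CPM (295 to 376) in RNase I 0.1/0.025. With RNase T1 it was 310 CPM (279 to 344) at 1/1 and 548 CPM (446 to 667) at 0.25/0.25. The levels did not order by enzyme. The interval of RNase I 0.05/0.025 overlapped that of RNase T1 0.25/0.25, and the interval of RNase I 0.1/0.025 overlapped that of RNase T1 1/1, while RNase I 0.05/0.05 lay above the other 4.

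Among the genes with a cluster on an exon, *MYC* ranked 155 of 11080 in RNase I 0.05/0.05 and 657 of 7605 in RNase I 0.1/0.025. It ranked 327 of 7282 in RNase I 0.05/0.025, 669 of 8723 in RNase T1 1/1 and 387 of 3716 in RNase T1 0.25/0.25. These places, in the upper 1.40% to 10.4% of the bound genes, are not corrected for length. Per kb of annotated exon, *MYC* ranked 427, 1100, 810, 952 and 628 in the same libraries, a lower place in each.

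**Figure D2:**
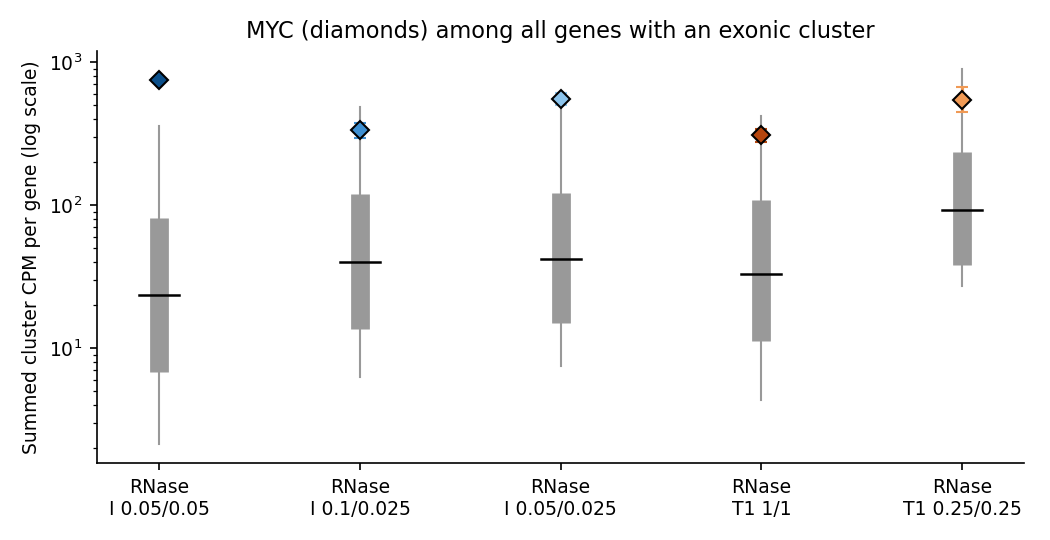
Summed cluster CPM of *MYC* (diamonds, with exact Poisson 95% intervals) in each IGF2BP3 library beside all genes with an exonic cluster, without correction for gene length. Grey boxes span the quartiles, thin lines the 5th to 95th percentile and black dashes the median, and the vertical axis is logarithmic. *MYC* lies above the upper quartile in each library and above the 95th percentile in RNase I 0.05/0.05 (755 CPM) and RNase I 0.05/0.025 (555 CPM).

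The study called a gene a target when at least 1 cluster exceeded 10 CPM and had T-to-C conversion events, the mark that crosslinked 4-thiouridine leaves in the cDNA, at over 0.5 per read. *MYC* met both criteria in all 5 IGF2BP3 libraries, with CPM taken over cluster reads. Applied this way, the criteria called 4981 genes in RNase I 0.05/0.05 and 4300 in RNase T1 1/1. The study reported fewer targets with either enzyme, so these calls and the shares below are not its own. The criteria are met by many genes: 45% of the genes with a cluster passed in RNase I 0.05/0.05, 63.3% in RNase I 0.1/0.025, 70.1% in RNase I 0.05/0.025, 49.3% in RNase T1 1/1 and 80.3% in RNase T1 0.25/0.25. In the shallow RNase T1 0.25/0.25 library 10 CPM corresponds to 1.82 reads, so the first criterion set no bar there.

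Which clusters carried the call differed between the coding sequence and the 3′UTR. Of the 28 clusters that lay in the coding sequence without reaching the stop codon, 14 passed both criteria, at least 1 in each library. All 3 clusters that spanned the stop codon passed, in the RNase I libraries, where 47.1%, 61.4% and 68.3% of all stop-spanning clusters did. Of the 13 clusters that lay in the 3′UTR alone, 1 passed, a cluster of 137 reads in RNase I 0.1/0.025. Of these 13, 10 exceeded 10 CPM and 2 exceeded 0.5 conversion events per read, against 22 of the 28 coding clusters on the latter measure. Over all clusters of a library, 74.2% exceeded 0.5 in RNase I 0.05/0.05, 75.5% in RNase I 0.1/0.025, 69% in RNase I 0.05/0.025, 54.5% in RNase T1 1/1 and 59.3% in RNase T1 0.25/0.25. Among all genes, the share of clusters of the 3′UTR alone that passed was 20.2%, 40.9% and 47% in the RNase I libraries, in the order above, and 22.8% and 59% in the RNase T1 libraries. The corresponding shares of coding clusters were 13%, 35%, 42.2%, 19.2% and 61.8%.

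With RNase T1 the call rested on exon 2 alone. In RNase T1 1/1 the 2 passing clusters were a 28-nt cluster of 64 reads at positions 127738628 to 127738655, with 0.609 conversion events per read, and a 39-nt cluster of 24 reads at 127738825 to 127738863, with 0.708. In RNase T1 0.25/0.25 the single passing cluster had 7 reads with 4 conversion events, at 127738831 to 127738863, and 38.4 CPM (15.4 to 79.1). Without its exon 2 clusters *MYC* would not have been called a target in either RNase T1 library.

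The clusters fell into 12 merged sites when overlapping clusters of all libraries were joined. A site in exon 2 at 127738582 to 127738693 was present in all 5 libraries, with 17.8 CPM in RNase I 0.05/0.05, 16.2 in RNase I 0.1/0.025 and 8.95 in RNase I 0.05/0.025. The same site had 55.3 CPM (42.6 to 70.6) in RNase T1 1/1 and 43.8 CPM (18.9 to 86.4) in RNase T1 0.25/0.25, so both RNase T1 values were higher than the RNase I values, although the interval of the smaller RNase T1 library reached into theirs. The RNase T1 clusters of the 2 libraries started at the same base of this site, position 127738628.

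The second exon 2 site, at 127738736 to 127738993, was also present in all 5 libraries. Its level was 55.9 CPM in RNase I 0.05/0.05, 22.4 in RNase I 0.1/0.025, 32.8 in RNase I 0.05/0.025, 27.7 in RNase T1 1/1 and 38.4 in RNase T1 0.25/0.25. RNase I 0.05/0.05 covered 258 nt of it in 1 cluster of 132 reads, whereas RNase T1 1/1 split it into clusters of 39 and 44 nt. Both RNase T1 libraries ended a cluster at the same base, 127738863.

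Upstream in exon 2 the libraries shared less. A cluster of 27 reads in RNase I 0.05/0.05 lay at the 5′ edge of exon 2, and its 3′ part overlapped a cluster of RNase T1 1/1 at 127738312 to 127738349 (6 reads with 6 conversion events). RNase I 0.05/0.05 and 0.1/0.025 held a small site at 127738694 to 127738732 (7 and 3 reads), and a pair of further sites of 5 and 6 reads was called in RNase I 0.05/0.05 alone. In exon 1, in the 5′UTR, the same library held 3 clusters of 18, 6 and 5 reads, all above 0.5 conversion events per read (0.611, 0.833 and 0.8) and all below 10 CPM. No other library had a cluster in exon 1. RNase I 0.05/0.05 was the deepest library, and the part of depth in these sites was not tested.

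In exon 3 a site at 127740463 to 127740735 was called in 4 libraries. It lay mostly before the determinant window and reached 30 nt into it. Its level was 62.6 CPM in RNase I 0.05/0.05, 32.4 in RNase I 0.1/0.025, 47.7 in RNase I 0.05/0.025 and 24.2 in RNase T1 1/1. RNase T1 0.25/0.25 had no cluster there. The conversion events per read of this site were 0.655, 0.692 and 0.719 in the RNase I libraries and 0.464 in RNase T1 1/1.

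The largest site joined the determinant to the 3′UTR, from 127740748 to 127741359, and held 18 of the 47 clusters. Its level was 585 CPM (554 to 616) in RNase I 0.05/0.05, 259 (225 to 297) in RNase I 0.1/0.025 and 465 (415 to 520) in RNase I 0.05/0.025. With RNase T1 it was 198 CPM (173 to 225) at 1/1 and 466 (372 to 576) at 0.25/0.25. It held more reads than any other *MYC* site in every library.

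The libraries cut this site differently. RNase I 0.05/0.05 placed 1089 reads in a single cluster of 409 nt that ran from position -208 to position 200 across the stop codon. RNase I 0.05/0.025 placed 239 reads in a cluster of 407 nt with nearly the same edges, from -194 to 212. These 2 clusters held 61.0% and 64.2% of the *MYC* reads of their libraries. Few clusters are so long: 0.681% of all clusters in the first library and 0.294% in the second were at least as long. Among the 1796 and 707 clusters that span a stop codon in these libraries, those of *MYC* ranked 32 and 28 by reads. In RNase I 0.1/0.025 the stop-spanning cluster of *MYC*, with 12 reads, ranked 403 of 784. These ranks are not corrected for cluster length.

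In RNase I 0.1/0.025 the same stretch was resolved into 3 clusters. A cluster of 39 nt within the determinant held 6 reads, and the next, of 99 nt, held 12 reads and crossed the stop codon. The last, of 154 nt, began 16 nt after the first base of the stop codon and held 137 reads. Most reads of the stretch were thus on the 3′UTR side in this library. How the reads of the 2 long clusters were spread within them could not be read from the files, which give 1 count per cluster.

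No RNase T1 cluster of *MYC* crossed the stop codon. Such clusters were uncommon in these libraries, at 0.528% and 0.575% of all clusters, against 1.97%, 1.81% and 1.92% in the RNase I libraries. On the coding side, RNase T1 1/1 had 8 reads at positions -138 to -93 and RNase T1 0.25/0.25 had 5 reads at -137 to -96, with 0.250 and 0.400 conversion events per read. On the 3′UTR side the first clusters began at position 78 (76 reads, 35 nt) and at position 47 (40 reads, 107 nt). The small cluster in the determinant was one of the places where all libraries met: positions -128 to -96 lay under a cluster in each of the 5 IGF2BP3 libraries.

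**Figure D3:**
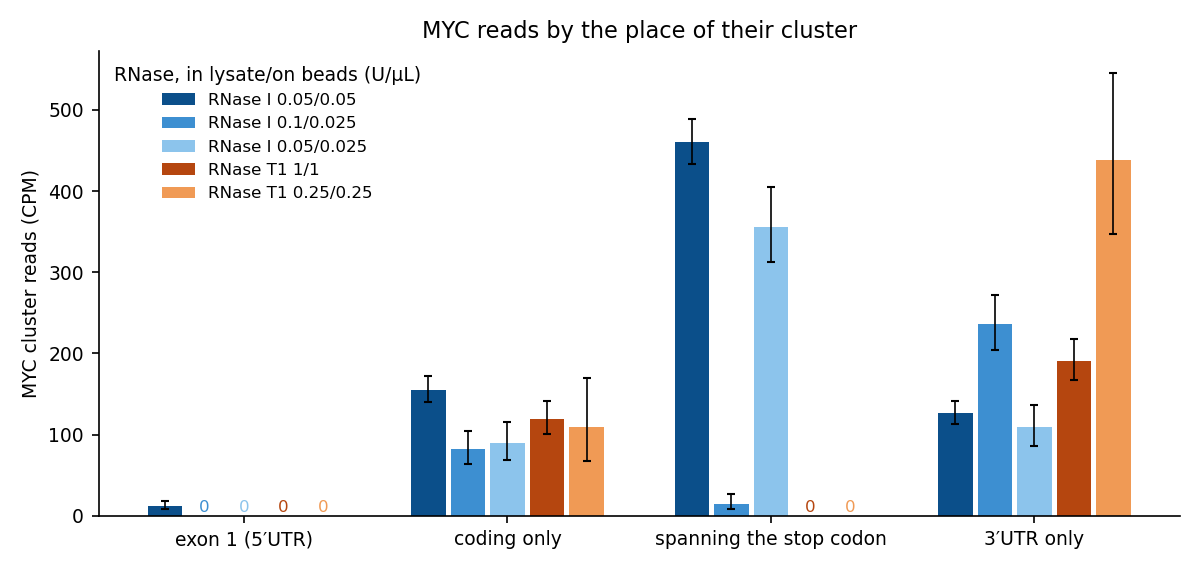
*MYC* cluster reads, as CPM, in each IGF2BP3 library, by the place of the cluster. Bars start at 0, error bars are exact Poisson 95% intervals, and a printed 0 marks a class without a cluster. Clusters that span the stop codon reach 461 and 356 CPM in RNase I 0.05/0.05 and 0.05/0.025 and 14.9 CPM in RNase I 0.1/0.025, and are absent with RNase T1.

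The share of *MYC* reads in clusters that touched the coding sequence followed the long clusters. It was 81.6% (interval 79.7 to 83.4) in RNase I 0.05/0.05 and 80.4% (76.0 to 84.3) in RNase I 0.05/0.025. It was 29.1% (23.7 to 34.9) in RNase I 0.1/0.025, 38.4% (33.4 to 43.7) in RNase T1 1/1 and 20% (12.7 to 29.2) in RNase T1 0.25/0.25. These shares depend on where the reads of stop-spanning clusters are placed. With only the clusters that ended before the stop codon, the coding share was 20.6%, 24.6% and 16.1% in the RNase I libraries, in the order 0.05/0.05, 0.1/0.025 and 0.05/0.025, below the 38.4% of RNase T1 1/1 and near the 20% of RNase T1 0.25/0.25. The high coding share with RNase I 0.05/0.05 and 0.05/0.025 therefore came from a single cluster in each.

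The same holds for the determinant. Clusters that touched its 250-nt window had 524 CPM in RNase I 0.05/0.05, 38.6 in RNase I 0.1/0.025, 368 in RNase I 0.05/0.025, 6.91 in RNase T1 1/1 and 27.4 in RNase T1 0.25/0.25. Most of the first and the third value belonged to the long clusters that run into the 3′UTR. Counting only the clusters that touched the window and ended before the stop codon, the levels were 62.6, 23.6, 11.9, 6.91 and 27.4 CPM. With RNase I these came largely from the upstream site in exon 3: the 62.6 CPM were a cluster with 24 of its 267 nt in the window, the 11.9 CPM a cluster with 30 of 91 nt, and 13 of the 19 reads behind 23.6 CPM a cluster with 7 of 70 nt. Clusters wholly inside the window held 6 reads in RNase I 0.1/0.025, 8 in RNase T1 1/1 and 5 in RNase T1 0.25/0.25, and there were none in the other 2 libraries. Clusters covered 92.8%, 53.2% and 89.6% of the window in the RNase I libraries, against 18.4% at 1/1 and 16.8% at 0.25/0.25 of RNase T1.

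RNase I and RNase T1 were compared at the same gel extraction. For all of *MYC*, RNase I 0.05/0.05 was 2.43 times RNase T1 1/1 (2.17 to 2.73), RNase I 0.1/0.025 was 0.609 times RNase T1 0.25/0.25 (0.482 to 0.774) and RNase I 0.05/0.025 was 1.01 times the same library (0.809 to 1.27). The sign of the difference was not shared by the 3 pairs. The exon 2 ratio was 1.05 (0.828 to 1.34) for the electroeluted pair, and 0.515 (0.273 to 1.02) and 0.508 (0.262 to 1.02) for the crushed-gel pairs, with intervals that all include 1. Clusters of the 3′UTR alone were lower with RNase I in all 3 pairs, with ratios of 0.663 (0.555 to 0.792), 0.539 (0.413 to 0.709) and 0.248 (0.178 to 0.345). When the stop-spanning clusters were added to them, the ratios were 3.08, 0.573 and 1.06. The latter pairs share a library, so they are not independent.

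The 2 RNase I libraries from crushed gel, which had the same concentration on the beads, differed mainly in the classes of clusters at and after the stop codon. RNase I 0.05/0.025 was 1.66 times RNase I 0.1/0.025 for all of *MYC* (1.42 to 1.95) and 0.987 times for exon 2 (0.576 to 1.68). It was 23.9 times for stop-spanning clusters (13.4 to 46.8), whereas for the 3′UTR alone it was 0.460 times (0.346 to 0.606). For all clusters that touched the 3′UTR, stop-spanning or not, it was 1.85 times (1.55 to 2.22). In RNase I 0.05/0.025 the reads just after the stop codon belonged to 1 cluster with the coding side, and in RNase I 0.1/0.025 they were called apart from it. The ratios of 23.9 and 0.460 therefore depend on where the clusters were split.

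**Figure D4:**
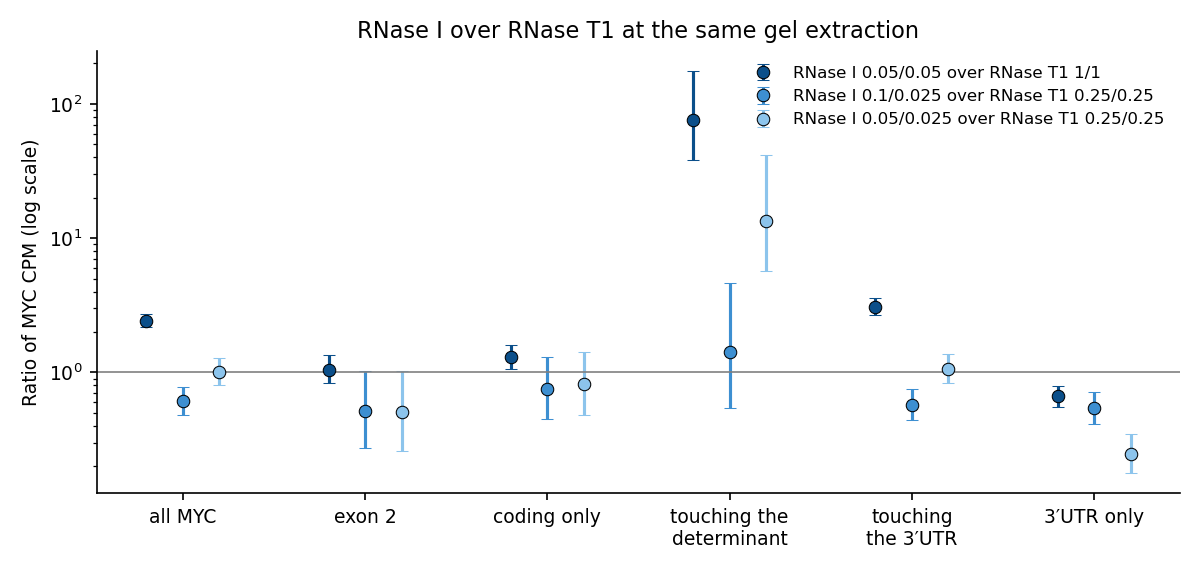
Ratios of *MYC* CPM, RNase I over RNase T1, for 3 pairs of libraries with the same gel extraction, by the place of the cluster. Points are ratios on a logarithmic axis with exact conditional binomial 95% intervals, and the grey line marks 1. Clusters of the 3′UTR alone lie below 1 in all 3 pairs and those touching the determinant reach 75.7 (38.3 to 176) in the first pair, where 1089 of the 1237 RNase I reads belong to the cluster that runs on into the 3′UTR. For clusters ending before the stop codon the levels of that pair were 62.6 and 6.91 CPM.

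In the 3′UTR, no cluster of any library lay beyond the commonly annotated 3′ end, and the last one ended 2 nt before it. The remaining 1517 nt of the canonical 3′UTR were bare. Of the 479 nt before that end, 82.5%, 63.0% and 71.0% were covered in the RNase I libraries in the order above, and 61.8% and 44.1% in RNase T1 1/1 and RNase T1 0.25/0.25. The files hold bound RNA only and say nothing of the *MYC* transcripts that lacked a cluster. An AAUAAA hexamer, the signal for cleavage and polyadenylation, occurred 438 nt after the stop codon's first base, 40 nt before the common end, and at 297. Beyond the common end it occurred at 1672 and 1974, the latter close to the canonical end.

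Downstream of the stop-spanning stretch a second block of the 3′UTR was bound in every library. The main cluster of this block ran from 220 to 377 with 292 reads in RNase I 0.05/0.05, from 245 to 354 with 45 reads in RNase I 0.1/0.025 and from 240 to 366 with 73 reads in RNase I 0.05/0.025. In RNase T1 1/1 it ran from 182 to 390 with 135 reads, and RNase T1 0.25/0.25 had 14 reads at 247 to 285 and 5 reads at 318 to 337. The position with the strongest signal in these clusters, as the files give it, was 333 in RNase I 0.05/0.05, 317 in both other RNase I libraries and 216 in RNase T1 1/1. In RNase T1 0.25/0.25 it was 247 in the cluster of 14 reads and 318 in that of 5 reads. That position has limited weight, since it fell on the first or last base of the cluster in 30 of the 47 members.

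This downstream block carried few conversions. Its main clusters had 0.486, 0.489 and 0.315 conversion events per read after RNase I digestion, RNase T1 1/1 gave 0.444, and the 2 small clusters of RNase T1 0.25/0.25 had 0.214 and 0.400. None of them passed 0.5. The 2 blocks were divided 212 nt after the stop codon's first base. The upstream block around and after the stop codon had 0.616, 0.651 and 0.665 in the RNase I libraries, in the order above, and 0.407 and 0.377 in the RNase T1 libraries. Upstream exceeded downstream in all 3 RNase I libraries and in RNase T1 0.25/0.25, where the downstream value was 0.263, but not in RNase T1 1/1. The downstream value of RNase T1 0.25/0.25 rests on 5 events in 19 reads. Per thymidine read, upstream exceeded downstream in all 5 libraries, with 7.98% against 5.16%, 10.2% against 4.74% and 8.37% against 3.14% in the RNase I libraries, 6.15% against 3.67% in RNase T1 1/1 and 3.94% against 3.21% in RNase T1 0.25/0.25. The blocks were not alike in sequence. The upstream clusters of RNase I 0.05/0.05 and 0.05/0.025 held 208 of 409 nt and 194 of 407 nt of coding sequence. Nor were they alike between the RNase T1 libraries. The cluster at 171 to 215 in RNase T1 0.25/0.25 counted as upstream, and that at 182 to 390 in RNase T1 1/1 as downstream.

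Coding clusters carried more conversions than clusters of the 3′UTR alone. Conversion events per read were 0.649 against 0.488 in RNase I 0.05/0.05, 0.621 against 0.605 in RNase I 0.1/0.025 and 0.700 against 0.315 in RNase I 0.05/0.025. They were 0.601 against 0.430 in RNase T1 1/1 and 0.500 against 0.350 in RNase T1 0.25/0.25. The ratio of the 2 rates was above 1 in all 5 libraries, and its interval excluded 1 in 3 of them: 1.33 (1.08 to 1.64), 2.22 (1.31 to 3.87) and 1.40 (1.03 to 1.90) in RNase I 0.05/0.05, RNase I 0.05/0.025 and RNase T1 1/1. A coding rate above the 3′UTR rate was seen in 59.5%, 57.5%, 57%, 64.7% and 52% of the genes with at least 20 reads in both classes, so the direction itself was common.

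The 3′UTR is richer in thymidine, and each thymidine of a read is an opportunity to convert. Per thymidine read, 13.8% were converted in coding clusters against 5.16% in clusters of the 3′UTR alone in RNase I 0.05/0.05, 15.0% against 7.96% in RNase I 0.1/0.025 and 13.5% against 3.14% in RNase I 0.05/0.025. With RNase T1 the values were 10.7% against 4.31% at 1/1 and 10.2% against 3.78% at 0.25/0.25. The coding rate was 1.89 to 4.32 times the 3′UTR rate, and the interval lay above 1 in all 5 libraries. Per read, the interval included 1 in RNase I 0.1/0.025 (0.700 to 1.48) and RNase T1 0.25/0.25 (0.619 to 3.03). Thymidines counted per read were 4.70, 4.14, 5.17, 5.61 and 4.90 in coding clusters, in the order above. In clusters of the 3′UTR alone they were 9.45, 7.60, 10.0, 9.98 and 9.25. The ratio per thymidine read is the ratio per read multiplied by this contrast, so it is larger by construction. On this scale 86.6%, 85.5%, 86.1%, 81.1% and 85.3% of the same genes went the same way, so the direction was that of most genes. Over all clusters of the 2 classes, the rates were 9.82% against 7.66%, 9.77% against 7.78% and 8.82% against 7.08% in the RNase I libraries. With RNase T1 they were 7.64% against 5.43% at 1/1 and 7.53% against 6.04% at 0.25/0.25. The 2 rates of *MYC* lay further apart than these pooled rates in each library, with 20 coding reads in RNase T1 0.25/0.25. How widely this gap varies between single genes was not examined.

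**Figure D5:**
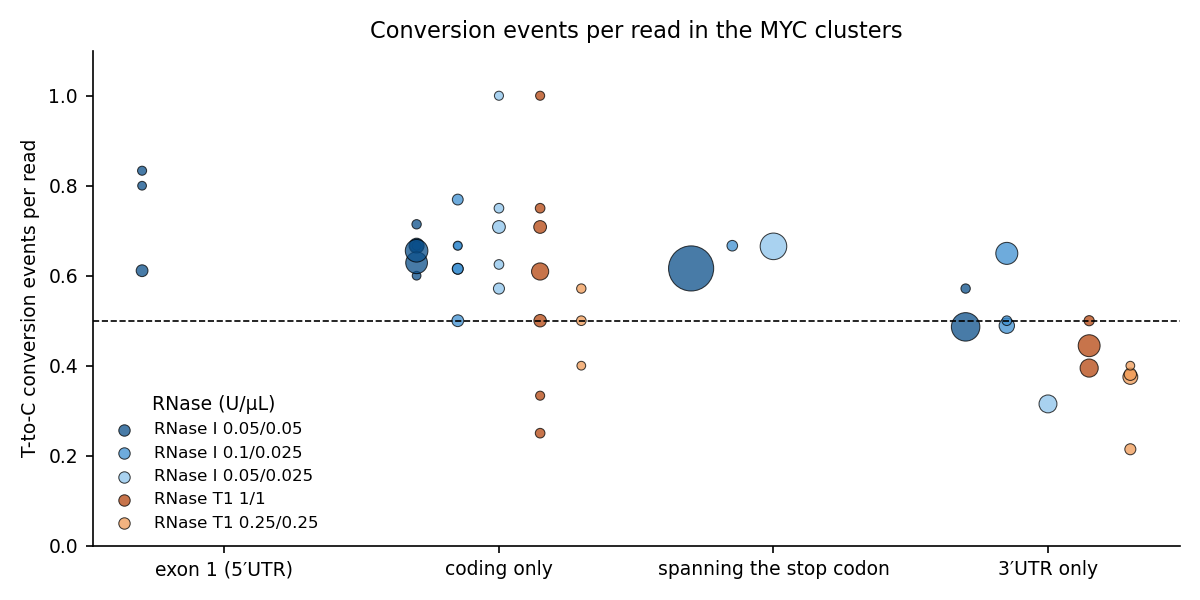
T-to-C conversion events per read of each *MYC* cluster, by its place and library. Circle area rises with the cluster's reads and the dashed line marks the 0.5 required for a target. All stop-spanning clusters lie above the line (0.616 to 0.667), and 11 of the 13 clusters of the 3′UTR alone lie on or below it.

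The base composition of the mRNA differed between the bound stretches. To the common end the mRNA held 24.4% G, which fell to 12.7% in the 3′UTR, and T rose to 37.6% there against 16.1% to 18% in the coding stretches. Clusters of the 2 RNase T1 libraries together covered 671 nt, 30.4% of the mRNA, and those of the 3 RNase I libraries 1684 nt, 76.4%. The libraries behind these totals differed in depth. RNase I 0.05/0.05 alone, with 1784 *MYC* reads, covered 1636 nt, counted with 4 nt of intron. RNase I 0.1/0.025 covered 801 nt with 268 reads and RNase I 0.05/0.025 945 nt with 372. RNase T1 1/1 covered 616 nt with 359 reads and RNase T1 0.25/0.25 322 nt with 100. The part of depth was not tested. Of the nucleotides under RNase T1 clusters, 96.4% also lay under an RNase I cluster. G content was 16.2% under RNase T1 clusters, 25.5% under RNase I clusters alone and 33.1% under no cluster.

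Runs of at least 18 nt without a G, the shortest read length kept, made up 18.03% of the nucleotides under RNase T1 clusters, 1.74% of those under RNase I clusters alone and 0% of those under no cluster. The determinant window, exon 1 and the exon 3 coding sequence before the window held none. RNase T1 1/1 clusters covered 40.3% of the last stretch, 18.4% of the window and none of exon 1. RNase T1 0.25/0.25 clusters covered 16.8% of the window and nothing of the other stretches. Within 100 nt of the stop codon, the 139 nt under no RNase T1 cluster held none either, and their longest run without a G was 13 nt. RNase T1 clusters of *MYC* ended in G in 9 of 10 and 6 of 7 cases, as did 94.7% and 91.7% of all clusters of these libraries, against 2 of 13, 1 of 10 and 2 of 7 with RNase I. The part of G content in the gap at the stop codon was not tested.

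The nucleotides covered in all 5 IGF2BP3 libraries numbered 197, 8.94% of the mRNA to the common end. They formed 7 stretches. Exon 2 held 5 nt at 127738628 to 127738632 and 29 nt at 127738831 to 127738859, and the determinant held 33 nt at 127740828 to 127740860. The 3′UTR held 4, at 127741034 to 127741068 (35 nt), 127741074 to 127741109 (36 nt), 127741203 to 127741241 (39 nt) and 127741274 to 127741293 (20 nt). A further 496 nt of the mRNA lay under no cluster of any library.

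CAUU and CAGU, both 4-letter elements, were counted on the plus strand of the mRNA. The study drew CAGU from the RNase I clusters of these same libraries. CAUU was the strongest motif of the RNase T1 clusters and was already known from earlier data. The counts below are therefore not independent of the clusters and do not test either element. The mRNA held 5 CAUU, of which 1 lay under an RNase T1 cluster and 4 under RNase I clusters alone. The 3 CAGU divided into 2 and 1. None of the 8 lay outside the clusters, but only 22.5% of the mRNA did. The stretch at 127741203 to 127741241 held a CAUU, and the other 6 stretches shared by all libraries held neither element. The 409-nt cluster of RNase I 0.05/0.05 held 1 of each, but 90.2% and 87.8% of the clusters of similar length (within 10%) of that library held them as well. The 137-read cluster of RNase I 0.1/0.025 and the 76-read cluster of RNase T1 1/1 held neither. Of the clusters of similar length, 69.5% and 63.5% held CAUU and CAGU in the former library, and 34.1% and 9.32% in the latter.

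*MYC* acts in a network of basic helix-loop-helix proteins, and 10 of 12 other genes of this network, paralogues included, had a cluster in at least 1 IGF2BP3 library. Of the 12, 8 were a target in at least 1 library, and *MLX* was the single one called in all 5, with 21.9 to 235 CPM. The counts over any library have no share of all genes beside them, so only the counts by library below can be set against a background. *MAX*, the obligate partner of MYC, had 27.4 to 105 CPM and was a target in 4 libraries. The antagonist *MXI1* had 107 to 318 CPM and was a target in 4. The paralogue *MYCN* had no cluster, and *MYCL* was called with 5 and 6 reads in 2 libraries. By library, in the order used above, the network genes with a cluster that were targets numbered 6 of 10, 7 of 7, 6 of 7, 5 of 10 and 5 of 6, beside 45%, 63.3%, 70.1%, 49.3% and 80.3% of all genes with a cluster.

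Of 11 genes for proteins known to bind *MYC* mRNA, 10 had a cluster and 9 were a target in at least 1 library. These counts again have no share of all genes beside them, unlike the counts by library below. *IGF2BP3* itself had 90.9 to 242 CPM and was a target in all 5, as were *HNRNPU*, *SYNCRIP*, *ELAVL1* and *PTBP1*. *IGF2BP2* had 32.9 to 129 CPM and was a target in 4, and *IGF2BP1* had no cluster. *PTBP1*, which encodes a polypyrimidine tract binding protein, had 441 to 1173 CPM. Of those with a cluster, 8 of 10 were targets in each RNase I library, 7 of 10 in RNase T1 1/1 and 7 of 9 in RNase T1 0.25/0.25, beside the same shares of all genes with a cluster.

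The genes most like *MYC* in the levels of coding-touching and 3′UTR reads over the 5 libraries were *CCNI*, *TGIF1*, *DHX15*, *SLC39A6* and *IPO7*. Likeness was the distance of the log2(CPM + 1) values over 10 values, 2 per library, among 3851 genes. Their distances were 2.48, 2.68, 2.81, 2.86 and 2.87, and the median distance was 15.6. *CCNI*, the closest, had 306 CPM of coding-touching reads in RNase I 0.05/0.05 against 616 for *MYC*, and 200 against 97.1 in RNase I 0.1/0.025.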

How the data were processed

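Infrared PAR-CLIP libraries of HCT116 cells were analysed, 5 with an anti-IGF2BP3 antibody and 1 with IgG, at 1 library per condition. Following the submitters' processing notes and the methods, the authors demultiplexed reads with bcl2fastq 2.20.0.422, extracted and collapsed molecular identifiers with UMI-tools 1.1.1, trimmed with Trimmomatic 0.30 to reads of 18 to 45 nt, aligned with Bowtie 0.12.7 to GRCh38 with up to 3 mismatches and without splicing, and called clusters per library with PARalyzer. Clusters can therefore not cross exon junctions, and copies of 1 molecule count once. The deposited unit is counts: reads, conversion positions, conversion events and non-conversion events of each cluster. No other unit was used.

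Clusters were assigned to exons of GENCODE release 44 with bedtools 2.31.1 (same strand, at least 1 nt). The sequences of all clusters were identical to GRCh38. CPM was computed over all cluster reads of a library (182448 to 2362467, and 324 for IgG). Intervals are exact Poisson (CPM), Clopper-Pearson (shares) and conditional binomial (ratios), at 95%. A cluster was coding when it touched the coding sequence and not the stop codon. Merged sites joined clusters overlapping by 1 nt. Computation used python 3.11.15, pandas 2.3.3, scipy 1.17.1, pysam 0.24.0 and samtools 1.23.1. Assignment to the 3′UTR, target calls and the ratio interval were tested on simulated data. Coding and stop-spanning assignment and the other intervals were not. No test between conditions was possible, and nothing shows the spread between repeated libraries. The members, the window, the gene lists and the alternatives were chosen with earlier results of these data known. Named genes were *MYC*, 12 other genes of its network, 11 binders of its mRNA and the 5 genes with the smallest distance in coding-touching and 3′UTR log2(CPM + 1), among genes with at least 100 exon reads in RNase I 0.05/0.05. No nucleotide sequence of the locus is printed. The in-lysate RNase I concentration of 0.1 U/µL is that of the labels.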

Additional observations from a re-analysis of the deposited data

How the results depend on the processing

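Of 97 alternative values, 60 stayed within the counting interval or within 1.5 times the main count and 37 moved. The *MYC* target call, made in 5 libraries, was made in 1 (RNase I 0.1/0.025) with more than 0.75 conversion events per read. It rested there on a cluster of 13 reads with 10 conversion events. That bar was passed by 14.0%, 35.3%, 35.9%, 18.2% and 45.5% of all genes with a cluster (order as in the report). The *MYC* call was made in 0 with a share of converted thymidine reads over 0.5, a bar that at most 0.0229% of genes passed. With at least 20 reads in place of 10 CPM it was made in 4 and lost in RNase T1 0.25/0.25, whose passing cluster had 7 reads. With 3′UTR clusters alone it was made in 1, and with coding clusters alone in all 5. This pair of alternatives was chosen after seeing the data, as were the common transcript end, the count of determinant clusters ending before the stop codon and the omission of the largest cluster. With exon reads as the denominator *MYC* had 833 CPM in RNase I 0.05/0.05 and 354 in RNase T1 1/1. Without the cluster with the most reads it had 294, 163, 198, 194 and 329 CPM in the 5 libraries (order as in the report), and the ratios of RNase I 0.05/0.05 over RNase T1 1/1 and RNase I 0.05/0.025 over RNase T1 0.25/0.25 became 1.52 and 0.603. The coding share with stop-spanning reads split by nucleotides was 51.6% in RNase I 0.05/0.05 and 46.8% in RNase I 0.05/0.025, and counted for the 3′UTR 20.6% and 16.1%. The covered share of the 3′UTR, 19.8%, 15.1%, 17.0%, 14.8% and 10.6% of the canonical length, was 82.5%, 63.0%, 71.0%, 61.8% and 44.1% to the common end. With clusters above 10 CPM it was 17.99% in RNase I 0.05/0.05 and 12.2% in RNase T1 1/1. Reads over the determinant were 1089 and 18 for the last 150 nt in RNase I 0.05/0.05 and 0.1/0.025, 30 for the last 350 nt in RNase T1 1/1, and 148, 19 and 8 in the RNase I libraries when only clusters ending before the stop codon counted. The rank by the top cluster was 429, 171 and 383 in RNase I 0.1/0.025, RNase I 0.05/0.025 and RNase T1 1/1, and per kb of exon 427, 1100, 810 and 628 in the RNase I libraries and RNase T1 0.25/0.25. The 12 merged sites became 32 with a reciprocal overlap of 50%. The cause of these shifts was not tested beyond the construction of each alternative. The depth limits RNase T1 0.25/0.25 most, where clusters of 5 to 8 reads carry single statements. No paired analysis was possible because each condition had 1 library.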
